A study of Mus musculus with 8 samples.

Results

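The genes described are 9 transcription factors that direct lymphocyte fate, Tbx21, Eomes, Gata3, Bcl6, Foxp3, Ikzf2, Maf, Tox and Id2, chosen by name from 24405 genes. Their unique molecular identifier (UMI) counts were read in single cells of mouse organ allografts profiled by Microwell-seq, a method that captures the 3′ ends of polyadenylated transcripts on barcoded beads in agarose microwells. All 9 had UMIs in the series as a whole, and 8 of them in the heart PBMC library, where Foxp3 was not listed. Among the cells kept, the totals ran from 147 UMIs for Foxp3 to 36420 for Id2, with 2744 for Maf, 2158 for Tbx21, 1737 for Tox, 459 for Gata3, 259 for Eomes, 255 for Bcl6 and 212 for Ikzf2.

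According to the methods, hearts, livers and kidneys of BALB/c mice were placed into C57BL/6 recipients with no immunosuppression, donors and recipients were 8 weeks old, and tissue was taken on day 7 from 2 recipients per organ. The labels give BALB/c, male and 8 weeks for every library. The 8 libraries are heart, liver and kidney PBMC (blood mononuclear cells), heart, liver and kidney TIL (lymphocytes isolated from the graft on a density gradient), and liver and kidney PC (cells of the digested graft), 1 library per condition and none of an untransplanted mouse. Organs were therefore not tested against each other, and p-values below rest on the spread between libraries that differ in organ and can share recipients. That spread was in effect pooled over genes in comparisons of cell classes, cycling cells, T cells split by Foxp3 and NK with CD8 T changes. A gene's own spread between libraries entered little there.

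Tbx21 (T-bet) and Eomes are T-box factors that drive interferon and cytotoxic programs in CD8 T cells, type 1 helper cells and NK cells. Gata3 directs type 2 helper cells and is also needed in early T cells, Bcl6 directs follicular helper T cells and germinal centre B cells, Foxp3 defines regulatory T cells, and Ikzf2 (Helios) is found in many regulatory T cells. Maf supports Il10 and Il21 transcription in helper T cells and is also expressed by macrophages, Tox accompanies chronic antigen stimulation of CD8 T cells, and Id2 blocks E proteins in effector lymphocytes, NK cells and many myeloid cells.

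Classes were set by marker UMIs among the 47541 of 80000 barcodes that reached 500 UMIs and held no more than 10% mitochondrial UMIs. CD8 T cells carried at least 2 UMIs of Cd8a plus Cd8b1, CD4 T cells at least 1 UMI of Cd4 and 1 of Cd3d, Cd3e or Cd3g, B cells at least 2 of Cd79a plus Cd79b, NK cells at least 2 of 6 NK receptor genes and none of the Cd3 or Cd8 genes, and macrophages, used as the background, at least 1 of Csf1r. The 2118 cells that met more than 1 rule were left out. In libraries with at least 20 cells of a class there remained 8984 CD8 T cells in 8 libraries, 308 CD4 T cells in 4, 436 NK cells in 6, 655 B cells in 4 and 6535 macrophages in 8. The UMIs of a class were summed per library and are given as CPM, counts scaled to the same total in every sum. These are 3′ counts, so levels are compared between classes and libraries for 1 gene and not between genes.

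The classes carried their own markers, some of which are genes of the class rules, and also UMIs of markers of other cells. In macrophages of heart PBMC, neutrophil markers summed to 180519 CPM beside 14454 CPM of macrophage or monocyte markers. The summed level of 8 T cell markers ran from 5783 to 9160 CPM in CD8 T cells, and from 401 to 5951 CPM in macrophages. Trac, a T cell receptor chain gene that macrophages should lack, lay between 534 and 1239 CPM in CD8 T cells and between 31.4 and 585 CPM in macrophages. In the kidney PC library Trac stood at 534 CPM in CD8 T cells and 585 CPM in macrophages, so the classes were not separated there. In B cells of the libraries labelled liver PC and liver TIL the plasma cell gene Jchain reached 12631 and 30335 CPM. Organ markers went against 2 labels: 6 hepatocyte markers summed to 446 CPM in the library labelled heart TIL and 1.99 CPM in the library labelled liver TIL, and 6 cardiomyocyte markers to 25.7 and 89.8 CPM. Pairs of libraries shared between 1 and 600 barcodes among the cells kept.

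**Figure D1:**
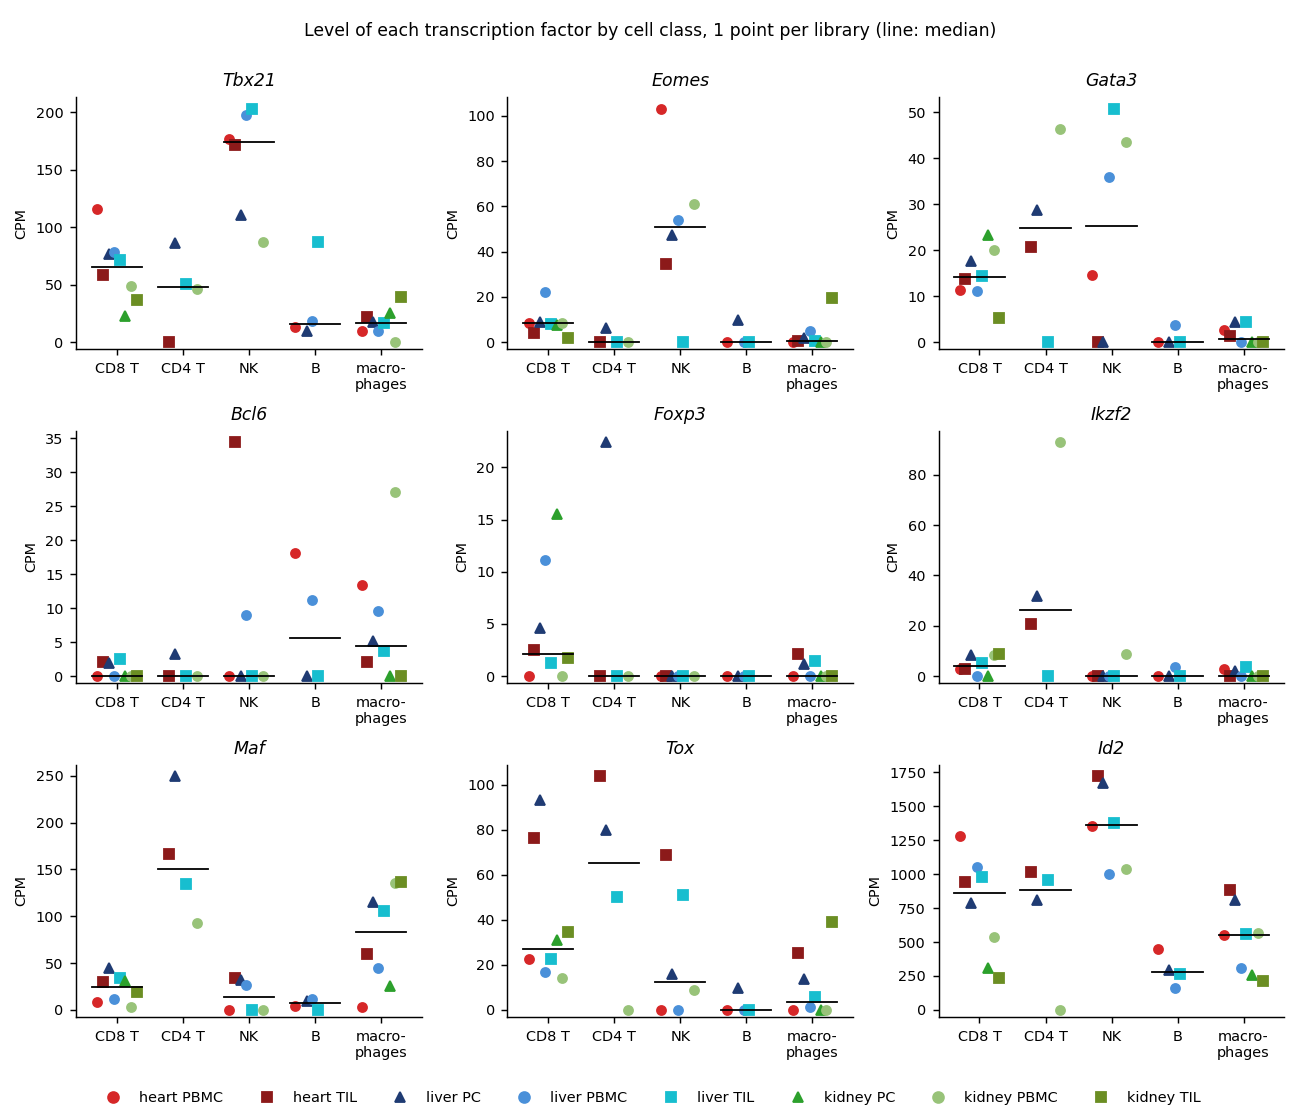
CPM of the 9 transcription factors (vertical axis, 1 panel per gene) in CD8 T, CD4 T, NK and B cells and macrophages, with 1 point per library with at least 20 cells of the class and a line at the median. Tbx21 and Eomes medians are highest in NK cells (174 and 50.7 CPM), the Maf median is highest in CD4 T cells (150 CPM), and the Id2 median is highest in NK cells (1364 CPM).

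Tbx21, Eomes, Gata3 and Id2 were higher than in macrophages in both CD8 T and NK cells, and the 250 bases upstream of the RefSeq starts of the first 3, whose differences were larger than those of Id2, are shown for that reason. The RefSeq windows used, on GRCm38.p6, cover 6 of the 9 genes and not Ikzf2, Maf and Tox. Motifs searched on both strands were GGTGTGA for T-box factors, TGTGGT for RUNX factors, CCGGAA for ETS factors and AGATAA for GATA factors. The RUNX and T-box letters can share bases where they adjoin, and matches are in capitals. Each sequence runs 5′ to 3′ on the strand of its gene. Tbx21 lies at chr11:97115332-97115581 on the minus strand, Eomes at chr9:118477939-118478188 on the plus strand and Gata3 at chr2:9878601-9878850 on the minus strand. The Eomes window ends short of the GENCODE start of the gene, and the Gata3 window lies inside the GENCODE span of Gata3, whose start is further upstream.
Tbx21: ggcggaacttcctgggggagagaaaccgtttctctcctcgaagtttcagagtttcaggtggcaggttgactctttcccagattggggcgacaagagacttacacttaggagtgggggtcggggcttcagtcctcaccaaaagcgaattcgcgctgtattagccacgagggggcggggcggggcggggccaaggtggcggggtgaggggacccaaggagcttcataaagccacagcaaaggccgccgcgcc
Eomes: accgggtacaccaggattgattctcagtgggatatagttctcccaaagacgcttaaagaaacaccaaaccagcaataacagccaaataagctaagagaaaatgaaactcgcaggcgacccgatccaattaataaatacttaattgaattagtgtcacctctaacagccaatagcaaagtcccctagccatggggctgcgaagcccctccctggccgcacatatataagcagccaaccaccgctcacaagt
Gata3: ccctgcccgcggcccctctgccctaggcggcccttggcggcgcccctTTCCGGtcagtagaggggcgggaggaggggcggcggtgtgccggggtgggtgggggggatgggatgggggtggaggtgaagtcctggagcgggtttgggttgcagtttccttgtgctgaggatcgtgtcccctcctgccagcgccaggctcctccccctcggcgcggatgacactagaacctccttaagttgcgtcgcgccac
The Gata3 window held 1 ETS match, and the Tbx21 and Eomes windows held no match to any of the 4 motifs. Among the other windows, 1 of Bcl6 held the ETS letters and 1 of Foxp3 the GATA letters. Of 32851 promoter windows of the same length, 3.33% held the T-box letters, 14.0% the RUNX letters, 12% the ETS letters and 9.99% the GATA letters. The genes themselves are protein coding and lie, on GRCm38 with GENCODE annotation, on chromosome 11 (97098071 to 97115331, Tbx21), 9 (118478212 to 118486132, Eomes), 2 (9857078 to 9890034, Gata3), 16 (23965052 to 23988852, Bcl6), X (7573644 to 7595245, Foxp3), 1 (69531214 to 69687245, Ikzf2), 8 (115682942 to 115707794, Maf), 4 (6686353 to 6991557, Tox) and 12 (25093799 to 25097140, Id2).

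Against macrophages, CD8 T cells carried more of 7 of the 9 factors and less of 2. Tbx21 ranged from 23.2 to 116 CPM over the 8 CD8 T sums, with a median of 65.4, and from 0 to 39.0 CPM in macrophages, with a median of 17.1. Tox ranged from 14.3 to 93.0 CPM (median 26.9) in CD8 T cells and from 0 to 39.0 CPM (median 3.51) in macrophages. The ranges overlapped for both genes. For Tbx21 the overlap came from kidney libraries, since in the kidney PC library the 3 Tbx21 UMIs of CD8 T cells gave 23.2 CPM beside 25.4 CPM from 1 UMI in macrophages, and in the kidney TIL library 36.4 CPM stood beside 39.0 CPM from 2 UMIs. For Tox it came from macrophages of kidney TIL (39.0 CPM, 2 UMIs) and of the library labelled heart TIL (25.1 CPM, 36 UMIs). Eomes ranged from 1.73 to 22.3 CPM (median 8.35) in CD8 T cells and from 0 to 19.5 CPM (median 0.713) in macrophages. For Gata3 no overlap was seen, with 5.20 to 23.2 CPM (median 14.2) in CD8 T cells and 0 to 4.46 CPM (median 0.699) in macrophages. It is not resolved for kidney, where macrophages of PC, PBMC and TIL had no Gata3 UMI. Those sums allow up to 76.3, 81.2 and 58.6 CPM, above every CD8 T value. The CD8 T values of liver PBMC, kidney PC and kidney TIL rest on 2, 3 and 3 Gata3 UMIs.

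In the fit across 11935 genes (edgeR quasi-likelihood test with the library as a block and Benjamini-Hochberg adjustment), all 9 factors passed between CD8 T cells and macrophages, where 37.4% of all genes passed, 16.4% higher and 21% lower. The log2 difference was 1.93 (SE 0.21, adjusted p = 1.73e-18) for Tbx21, 2.10 (SE 0.24, adjusted p = 2.80e-16) for Tox, 2.04 (SE 0.40, adjusted p = 2.66e-06) for Eomes and 2.03 (SE 0.32, adjusted p = 2.41e-09) for Gata3. Trac UMIs in the macrophage sums, which bear on all these differences, varied between libraries. The CD8 T to macrophage ratio of Trac was 12.2, 19.0 and 7.36 in heart, liver and kidney PBMC, 2.70, 3.40 and 6.02 in the libraries labelled heart, liver and kidney TIL, 5.10 in liver PC and 0.914 in kidney PC, and the part of such UMIs in the differences was not tested. DESeq2 called 6 of the 9 factors, all but Id2, Ikzf2 and Foxp3, and gave no adjusted p for Foxp3. The comparisons of CD8 T, CD4 T, NK and B cells with macrophages all share the same macrophage sums. Id2 differed least, with a median of 864 CPM in CD8 T cells and 555 CPM in macrophages and a log2 difference of 0.47 (SE 0.18, adjusted p = 0.031 in edgeR). It lost the call with DESeq2 (adjusted p = 0.29), RLE size factors (0.10), cells of more than 1 class kept (0.098), 1 sum per organ (0.70), without the liver PBMC library (0.16) and without the libraries labelled heart TIL and liver TIL (0.086). Among 30 other lymphocyte transcription factors, 27 were tested, and 13 were higher in CD8 T cells and 6 lower, with a median log2 difference of 0.67 beside -0.01 over all genes. Those that rose included Stat4, which carries interleukin 12 signals, and Ikzf3, Aiolos (log2 1.71 and 1.64), and Zeb2 was among those that fell.

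Maf and Bcl6 were the 2 factors lower in CD8 T cells than in macrophages. Maf ran from 2.69 to 137 CPM over the 8 macrophage sums (median 83.1) and from 2.86 to 45.2 CPM in CD8 T cells (median 24.7), a log2 difference of -1.56 (SE 0.20, edgeR adjusted p = 3.37e-13). The order was the opposite, on few UMIs, in heart PBMC and kidney PC. CD8 T cells and macrophages held 8.49 and 2.69 CPM (3 and 2 UMIs) in heart PBMC. In kidney PC they held 31.0 and 25.4 CPM (4 and 1 UMIs). Bcl6 was sparse, with 23 UMIs in CD8 T cells of 3 libraries and 49 UMIs in macrophages of 6, or 1.80 CPM (95% exact Poisson interval 1.14 to 2.70) beside 5.59 CPM (4.14 to 7.39) over the pooled sums. These Poisson intervals cover counting error only. The log2 difference of Bcl6 was -1.51 (SE 0.39, edgeR adjusted p = 6.26e-04). In heart, liver and kidney PBMC, macrophages held 10, 8 and 1 Bcl6 UMIs and CD8 T cells 0. All 5 neutrophil markers were also lower in CD8 T cells (median log2 -0.85). Their sums in macrophages and CD8 T cells were 180519 and 100732 CPM in heart PBMC and 81529 and 46522 CPM in liver PBMC. In kidney PBMC they were 51186 and 18206 CPM. The part of neutrophil UMIs in the Bcl6 difference was not tested. Foxp3 (46 UMIs in CD8 T cells, 10 in macrophages) and Ikzf2 (86 and 16 UMIs) were higher in CD8 T cells, by log2 1.29 (SE 0.49, edgeR adjusted p = 0.026) and 1.40 (SE 0.42, edgeR adjusted p = 0.0033). The Foxp3 call was lost with the stricter class rules (adjusted p = 0.078) and without the liver PBMC library (adjusted p = 0.078), and the gene could not be fitted without liver PC. The Ikzf2 call was lost with DESeq2 (adjusted p = 0.30) and without the liver PC library, where the difference was 0.78 (adjusted p = 0.35).

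**Figure D2:**
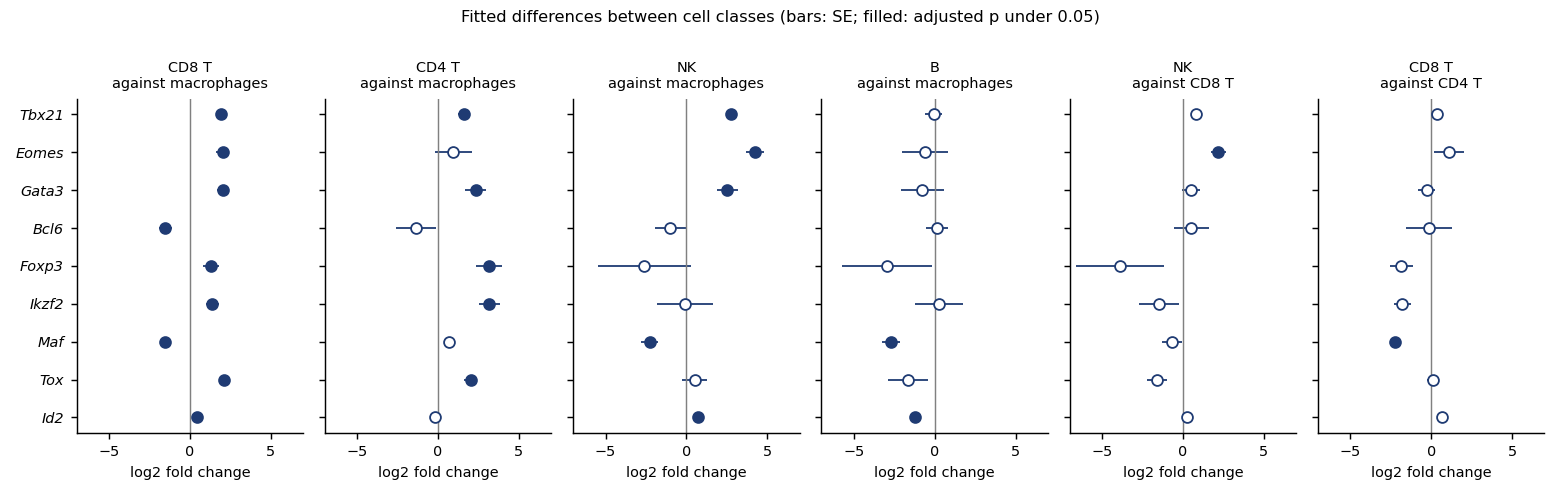
Log2 differences (horizontal axis) of the 9 factors in 6 comparisons of cell classes, with bars for the SE and filled points for genes with an edgeR adjusted p under 0.05. All 9 points are filled for CD8 T cells against macrophages, and 1 point is filled in each of the comparisons of NK with CD8 T cells (Eomes) and of CD8 T with CD4 T cells (Maf).

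NK cells held the highest median levels of Tbx21, Eomes and Id2, and for Gata3 their median of 25.4 CPM stood beside 24.8 CPM in CD4 T cells. Tbx21 ranged from 87.4 to 203 CPM over the 6 NK sums (median 174), all above the highest macrophage value of 39.0 CPM. Eomes ranged from 0 to 103 CPM (median 50.7). The 1 library without an Eomes UMI was the one labelled liver TIL, where 22 NK cells allow up to 153 CPM, and the other 5 ran from 34.4 to 103 CPM, above every macrophage and CD8 T value. The value of the library labelled heart TIL (34.4 CPM) rests on 1 UMI and that of liver PC (47.4 CPM) on 3. Macrophages of kidney PC and kidney PBMC had no Eomes UMI, which allows up to 76.3 and 81.2 CPM. Id2 ranged from 999 to 1720 CPM (median 1364), all above the 215 to 882 CPM of macrophages. Against macrophages, 5 of the 9 factors passed, where 13.1% of all genes did, 2.79% higher and 10.3% lower. Eomes (log2 4.24, SE 0.55, adjusted p = 1.21e-12), Tbx21 (2.76, SE 0.32, adjusted p = 1.38e-15), Gata3 (2.53, SE 0.65, adjusted p = 0.0017) and Id2 (0.72, SE 0.20, adjusted p = 0.0056) rose in NK cells and Maf fell (-2.26, SE 0.53, adjusted p = 3.82e-04, all edgeR). The median of all genes was -0.42 here and -0.16 with RLE size factors, which moved the calls from 333 higher and 1228 lower to 524 and 809; relative to the TMM median, Id2 stood at 1.15 and Maf at -1.83. The Gata3 call rests on 11 NK UMIs and was lost with a floor of 1000 UMIs per cell (edgeR adjusted p = 0.26), stricter class rules (0.074), cells of more than 1 class kept (0.055), and without liver PBMC (0.078) or kidney PBMC (0.054). The Id2 call was lost without kidney PBMC (log2 0.48, edgeR adjusted p = 0.076) and with cells of more than 1 class kept (0.051). Maf had 6 UMIs in 3 NK sums and none in the other 3, and Foxp3 had none in any NK cell, which allows up to 7.40 CPM over the class.

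Set against CD8 T cells of the same libraries, NK cells differed in Eomes. In the fit, Eomes was higher in NK cells by log2 2.20 (SE 0.47, edgeR adjusted p = 4.18e-04), the 1 factor of the 9 to pass where 2.83% of all genes passed, 0.821% higher and 2.01% lower. It was higher in NK cells in 5 of the 6 libraries that held both classes, the exception being the library labelled liver TIL. The call held without any 1 library (log2 1.80 to 2.52) and without the libraries labelled heart TIL and liver TIL (2.48). Tbx21 was higher in NK than in CD8 T cells in all 6 libraries, by log2 0.83 (SE 0.28), and did not pass (edgeR adjusted p = 0.084). Its NK values rest on 4 to 22 UMIs per library, and the Poisson intervals of both classes overlapped in each library. Tbx21 passed with DESeq2 (1.22, adjusted p = 0.0499), with RLE size factors (1.19, adjusted p = 0.0075) and with 1 sum per organ (1.11, adjusted p = 0.0032). The scaling mattered here, since the median of all genes lay at -0.39 with TMM and -0.03 with RLE, with 98 genes higher and 240 lower under TMM and 138 higher and 65 lower under RLE. Relative to the TMM median, Eomes stood at 2.59 and Tbx21 at 1.21. Tox was at 0 to 68.8 CPM in NK cells (median 12.3), on 5 UMIs over all NK sums, and gave log2 -1.59 (SE 0.61, edgeR adjusted p = 0.15). The difference passed with stricter class rules (-2.91, adjusted p = 0.015) and 1 sum per organ (-2.41, adjusted p = 7.02e-04). Without liver PC it was -0.93 (edgeR adjusted p = 0.67). Id2 gave 0.25 (SE 0.20, edgeR adjusted p = 0.57) and passed with RLE size factors (0.66, adjusted p = 0.026) and with 1 sum per organ (0.78, adjusted p = 0.011). The 1 sum per organ joins blood and graft libraries, with NK cells largely from blood and CD8 T cells largely from grafts. In that setting the cell class is not separated from blood or graft. Among 12 type 1 effector genes, 5 were higher in NK cells and 2 lower, including Klrg1 (log2 2.39) and Prf1, perforin (1.46). Of 8 exhaustion-associated genes, 7 were tested, of which 3 fell, including Pdcd1 (-2.98) and Lag3 (-2.75), and Cd244 rose (1.44), and Ctla4, listed with the regulatory T genes, was at -3.69.

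**Figure D3:**
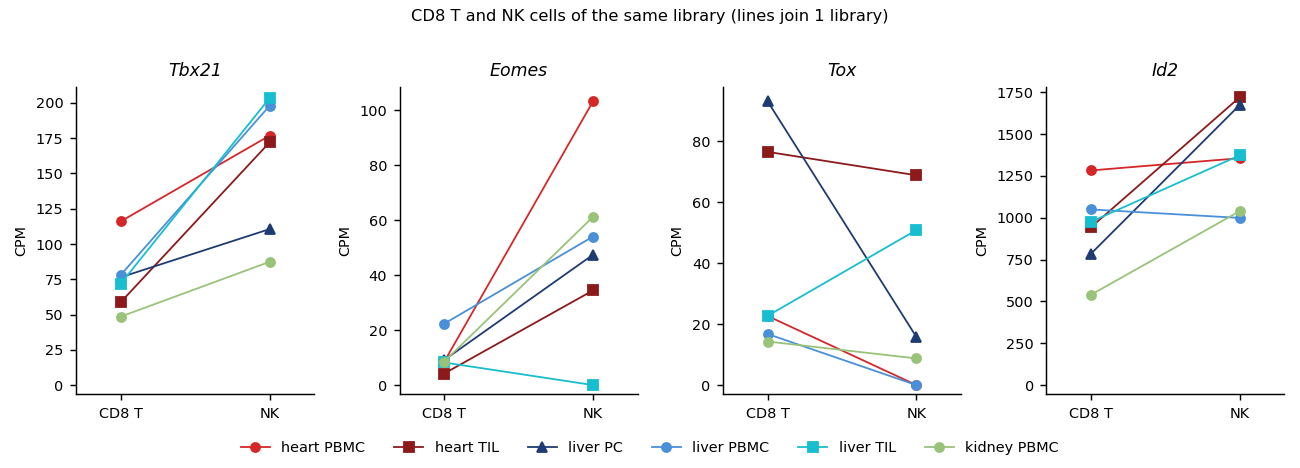
CPM of Tbx21, Eomes, Tox and Id2 (vertical axes) in CD8 T and NK cells, with lines joining the 2 classes of 1 library in the 6 libraries that hold at least 20 cells of both. Tbx21 rises from CD8 T to NK cells along all 6 lines and Eomes along 5. The NK points rest on 4 to 22 Tbx21 UMIs and 0 to 7 Eomes UMIs.

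Shares of cells with a Tbx21 UMI were higher in NK than in CD8 T cells of heart and liver PBMC. The exact binomial intervals of both classes overlapped in each of these libraries. After every cell was thinned to 500 UMIs, a Tbx21 UMI was seen in 11.4% of heart PBMC NK cells and 4.05% of heart PBMC CD8 T cells, beside 0.533% of macrophages, the background here (unthinned 15.7%, 11.8% and 0.933%, at median depths of 857, 1008 and 833 UMIs). In liver PBMC the thinned shares were 11.1%, 3.73% and 0.717% (unthinned 14.1%, 8.70% and 0.956%, at 712, 890 and 782 UMIs). In the liver PC library, the deepest, they were 6.82%, 3.77% and 1.04% (unthinned 11.4%, 13.1% and 3.53%, at 1297, 1606.5 and 1728 UMIs). After thinning the NK share was above the CD8 T share in 5 of 6 libraries, the exception being kidney PBMC (3.91% and 4.01%), where the CPM order was the opposite and no order is read from the shares. The NK shares of liver PC and of the libraries labelled heart TIL and liver TIL rest on 44, 37 and 22 cells. No order is read from the shares in these graft libraries, and in liver PC the unthinned order was the opposite. In kidney PC and kidney TIL the CD8 T shares of 1.52% and 2.24% were not told apart from the 1.59% and 2.70% of macrophages, which rest on 1 of 63 and 2 of 74 cells, so no order is read there either. Within liver PC CD8 T cells, thinned, an Eomes UMI was seen in 2 of 136 cells with a Tbx21 UMI (1.47%, exact binomial interval 0.179% to 5.21%) and in 17 of 3472 without (0.490%, 0.285% to 0.783%), and a Tox UMI in 3 of 136 (2.21%, 0.457% to 6.31%) and 153 of 3472 (4.41%, 3.75% to 5.14%). The intervals overlapped in both cases.

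CD4 T cells were few, and Maf set them apart. Maf stood at 249 CPM (78 UMIs) in liver PC, 166 CPM (8 UMIs) in the library labelled heart TIL, 134 CPM (8 UMIs) in the library labelled liver TIL and 92.8 CPM (2 UMIs) in kidney PBMC, each above the CD8 T value of every library, of which the highest was 45.2 CPM. CD8 T cells were lower by 2.21 on the log2 scale (log2 -2.21, SE 0.29, edgeR adjusted p = 3.97e-11), and Maf was the 1 factor of the 9 to pass, where 0.318% of all genes did, 0.126% higher and 0.193% lower. Without the liver PC library, which holds 181 of the 308 CD4 T cells, Maf was at -1.98 with an adjusted p of 0.0498 in edgeR, just under the threshold, and without the libraries labelled heart TIL and liver TIL it was at -2.49. Macrophages expressed Maf too (median 83.1 CPM), and CD4 T cells exceeded them by log2 0.65 (SE 0.28), which did not pass (edgeR adjusted p = 0.12) except with cells of more than 1 class kept (0.72, adjusted p = 0.027), RLE size factors (0.83, adjusted p = 0.047) or 1 sum per organ (0.91, adjusted p = 0.015). The last of these settings joins blood and graft libraries, and CD4 T cells were largely from grafts.

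Ikzf2 and Foxp3 had lower values in CD8 T than in CD4 T cells and did not pass. Ikzf2 stood at 32.0 CPM (10 UMIs) in CD4 T cells of liver PC, 92.8 CPM (2 UMIs) in kidney PBMC, 20.8 CPM (1 UMI) in the library labelled heart TIL and 0 in the library labelled liver TIL, where up to 50.3 CPM is allowed, beside 0 to 8.66 CPM in CD8 T cells (log2 -1.78, SE 0.55, edgeR adjusted p = 0.19). Foxp3 had 7 CD4 T UMIs, all in liver PC (22.4 CPM), beside 33 UMIs or 4.56 CPM in CD8 T cells of that library (log2 -1.85, SE 0.71, edgeR adjusted p = 0.46). Id2 gave log2 0.66 (SE 0.25, edgeR adjusted p = 0.43). It was at 812 to 1017 CPM in CD4 T cells of 3 libraries and had no UMI in the 20 CD4 T cells of kidney PBMC, which allows up to 139 CPM. The regulatory T list showed differences of its own, with 5 of 9 tested genes lower in CD8 T cells and none higher, and a list median of -1.33 beside 0.25 over all genes. They were Tnfrsf4 (log2 -2.24), Il10 (-2.35), Izumo1r (-1.67), Tnfrsf18 (-1.33) and Ctla4 (-0.92), and of 6 follicular helper genes tested Il21 (-3.21) and Icos (-1.37) were also lower. Gzmb, granzyme B, and Prf1 were higher (1.39 and 1.36), 2 of 12 type 1 effector genes. Without liver PC the calls of Izumo1r, Tnfrsf18, Icos and Prf1 were lost (edgeR adjusted p = 0.36, 0.27, 0.35 and 0.70), with Prf1 at 0.75. The scaling moved the median of all genes from 0.25 with TMM to -0.01 with RLE, and the calls from 15 higher and 23 lower to 9 higher and 35 lower.

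Against macrophages, 5 of the 9 factors were higher in CD4 T cells and none lower, where 10.6% of all genes passed, 2.91% higher and 7.67% lower. They were Ikzf2 (log2 3.17, SE 0.64, adjusted p = 2.39e-05), Foxp3 (3.15, SE 0.81, adjusted p = 0.0020), Gata3 (2.31, SE 0.63, adjusted p = 0.0040), Tox (2.01, SE 0.41, adjusted p = 3.07e-05) and Tbx21 (1.60, SE 0.40, adjusted p = 0.0011, all edgeR). Without the liver PC library Tbx21 (0.43), Gata3 (1.80), Tox (1.87) and Ikzf2 (2.42) did not pass (edgeR adjusted p = 0.86, 0.56, 0.15 and 0.32), and Foxp3, with all 7 of its CD4 T UMIs in that library, could not be fitted. With stricter class rules Tbx21, Gata3 and Tox lost the call (edgeR adjusted p = 0.23, 0.24 and 0.22). DESeq2 called Tbx21, Gata3 and Tox and gave no adjusted p for Foxp3 and Ikzf2. The median of all genes was -0.26 with TMM and -0.08 with RLE, and the calls moved from 347 higher and 916 lower to 478 and 696. In the library labelled heart TIL, Tbx21 had no UMI in 49 CD4 T cells, which allows up to 62.3 CPM, and Tox stood at 104 CPM (5 UMIs).

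B cells carried little of most factors. Id2 stood at 452 CPM in heart PBMC, 297 CPM in liver PC, 261 CPM in the library labelled liver TIL and 164 CPM in liver PBMC, below the macrophages of the same library each time (552, 809, 558 and 305 CPM), with a log2 difference of -1.22 (SE 0.26, edgeR adjusted p = 1.65e-04). Maf was lower as well (log2 -2.68, SE 0.56, edgeR adjusted p = 1.10e-04), with 5 UMIs in 655 B cells. These were the 2 factors to pass, where 5.7% of all genes did, 1.78% higher and 3.92% lower. The Maf call was lost without liver PC (-2.07, edgeR adjusted p = 0.080), and the Id2 call with cells of more than 1 class kept (-0.89, edgeR adjusted p = 0.085). The median of all genes was -0.23 with TMM and -0.02 with RLE, and the calls turned from 212 higher and 468 lower to 356 and 288; relative to the TMM median Id2 stood at -0.99 and Maf at -2.45. Bcl6 was seen in B cells of the blood libraries, at 18.1 CPM (4 UMIs) in heart PBMC and 11.2 CPM (3 UMIs) in liver PBMC, beside 13.5 and 9.65 CPM in macrophages there. It had no UMI in B cells of liver PC or of the library labelled liver TIL, which allow up to 29.7 and 131 CPM, so no difference between blood and graft B cells was detectable at this depth. The B sums also differed in markers of other cells. Neutrophil markers summed to 160788 and 95648 CPM in heart and liver PBMC, and to 11405 and 1697 CPM in these 2 graft libraries. Plasma cell markers summed to 574 and 637 CPM in that blood and 16865 and 37342 CPM in those grafts. The part of these cells in the Bcl6 values was not tested. Foxp3 had no UMI in any B cell, which allows up to 4.89 CPM over the class.

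Between graft and blood, the levels of most factors in CD8 T cells overlapped. Maf was at 8.49, 11.2 and 2.86 CPM in heart, liver and kidney PBMC (3, 2 and 1 UMIs) and at 30.3, 45.2, 34.1, 31.0 and 19.1 CPM in the libraries labelled heart TIL, liver PC, liver TIL, kidney PC and kidney TIL. Every graft value was above every blood value. With the organ as a covariate the log2 difference was 2.05 (SE 0.49, edgeR adjusted p = 0.031), the 1 factor to pass of 8 tested, where 4.27% of all genes passed, 2.19% higher and 2.07% lower, and Bcl6 fell under the filter of 30 UMIs. The call was lost in 5 of the 8 fits that left out a library, those without heart PBMC, the library labelled heart TIL, liver PBMC, kidney PBMC or kidney TIL (edgeR adjusted p = 0.14, 0.13, 0.11, 0.14 and 0.073), while the difference stayed between 1.77 and 2.29. Without both libraries labelled heart TIL and liver TIL it was 2.34 (edgeR adjusted p = 0.070). The call was also lost with DESeq2 (0.059), a floor of 1000 UMIs (0.16), stricter class rules (log2 1.46, 0.26) and no organ term (0.078).

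Markers of other cells moved with the same contrast. Of 9 macrophage or monocyte markers, 8 were tested in CD8 T cells and 5 were higher in the graft, C1qa, C1qb and C1qc among them. Their summed level ran from 897 to 6994 CPM in blood and from 3296 to 11821 CPM in graft CD8 T cells, and Csf1r was at 0 throughout, as the class rule sets. All 5 neutrophil markers were lower in the graft, with sums of 18206 to 100732 CPM in blood and 60.6 to 6383 CPM in the graft. Of 7 B cell markers tested, 5 were lower in the graft and 1 higher (median log2 -2.05). Higher as well were 1 of 4 plasma cell markers and 1 of 2 proximal tubule markers tested. The part of these markers in the Maf difference was not tested.

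Tox gave 22.7, 16.7 and 14.3 CPM in heart, liver and kidney PBMC and 76.5, 93.0, 22.7, 31.0 and 34.6 CPM in the grafts in the order above. All graft values were above all blood values, the library labelled liver TIL (22.73 CPM) by the smallest margin over heart PBMC (22.65 CPM). The log2 difference of 1.57 (SE 0.53) did not pass (edgeR adjusted p = 0.12), though it did without the filter on low counts (1.60, adjusted p = 0.0076), without the library labelled liver TIL (1.73, adjusted p = 8.41e-04) and without both libraries labelled heart TIL and liver TIL (1.79, adjusted p = 0.034). Tbx21 (116, 78.2 and 48.6 CPM in blood and 58.8, 76.4, 72.0, 23.2 and 36.4 CPM in the graft) gave -0.57 (SE 0.28, adjusted p = 0.29), Eomes -1.29 (SE 0.61, adjusted p = 0.27) and Id2 -0.60 (SE 0.23, adjusted p = 0.17, all edgeR). Id2 was highest in heart PBMC at 1283 CPM and lowest in kidney TIL at 236 CPM, and the groups overlapped for all 3 genes. With DESeq2 Id2 passed (-0.70, adjusted p = 0.035). Of 24 other lymphocyte transcription factors tested, Id3 was higher in the graft (log2 2.49) and Klf2 and Tcf7, factors of resting and memory T cells, were lower (-2.01 and -1.29). Tnfrsf4 (3.84), Ccl4 (3.29), Ifng (2.41), Tnfrsf9 (1.73) and Pdcd1 (1.68) also rose and Klrg1 fell (-2.27). When each library was left out in turn, the Tnfrsf9 call was lost in 5 of 8 fits, the Pdcd1 call in 3, and the Klrg1 and Klf2 calls in 1 each, the fit without liver PBMC (Klrg1 -1.54, edgeR adjusted p = 0.20, and Klf2 -1.51, adjusted p = 0.069). Under RLE size factors the calls over all genes turned from 236 higher and 223 lower to 191 higher and 290 lower.

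**Figure D4:**
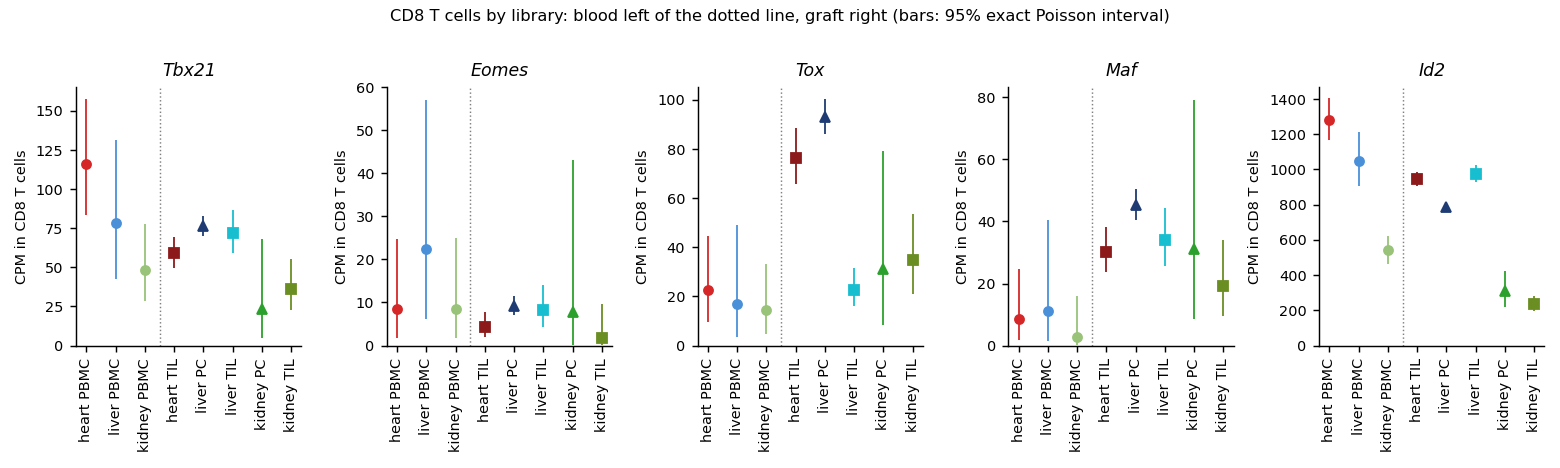
CPM of Tbx21, Eomes, Tox, Maf and Id2 in CD8 T cells (vertical axes) in 8 libraries, the 3 blood libraries left of the dotted line and the 5 graft libraries right of it, with 95% exact Poisson intervals. The 5 graft points lie above the 3 blood points for Maf and Tox, and the 2 groups overlap for Tbx21, Eomes and Id2.

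In NK cells, 2 of the 9 factors could be tested between graft and blood, and edgeR called neither (0 at an unadjusted p under 0.05, and 0 with DESeq2), where 4.69% of the genes tested passed, 1.27% higher and 3.41% lower. Tbx21 was at 177, 198 and 87.4 CPM in heart, liver and kidney PBMC and at 172, 111 and 203 CPM in heart TIL, liver PC and liver TIL as labelled, a log2 difference of -0.49 (SE 0.53, edgeR adjusted p = 0.82), and Id2 gave 0.34 (SE 0.37, edgeR adjusted p = 0.82). In CD4 T cells the comparison could not be fitted, since 1 blood library alone held 20 or more of them. The difference between the graft-minus-blood change of NK and of CD8 T cells passed for none of 8 factors tested by edgeR (0 at an unadjusted p under 0.05, and 0 with DESeq2), where 0.0935% of all genes passed, none of them higher.

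Foxp3-positive cells were rare. No library held 10 Foxp3-positive CD4 T cells, so T cells in general (at least 1 Cd3 UMI, no Csf1r) were split by Foxp3 in the 4 libraries with at least 5 positive cells, a choice made after the data were seen. Positive here means at least 1 Foxp3 UMI, seen in 72 T cells of liver PC, 14 and 8 of the libraries labelled heart TIL and liver TIL, and 6 of kidney TIL. In liver PC that was 1.22% of T cells beside 0.248% of macrophages, the background (0.427% and 0.0956% expected at 500 UMIs per cell, median depths 1433 and 1728). In the library labelled heart TIL it was 0.228% beside 0.220% (0.116% and 0.179% at 500 UMIs, depths 800.5 and 869), and in the library labelled liver TIL 0.158% beside 0.144% (0.0849% and 0.0719%, depths 748 and 812), so positive cells of these libraries are not told apart from background. In kidney TIL it was 0.420% (0.274% at 500 UMIs) beside 0 of 74 macrophages, which allows up to 4.05% (depths 670 and 616.5). Positive cells were deeper than negative T cells, with median depths of 1689.5 and 1431 UMIs in liver PC and 801.5 and 670 UMIs in kidney TIL. Depths were 999 and 800 UMIs in the library labelled heart TIL, and 1052 and 748 UMIs in the library labelled liver TIL. The part of depth in the differences between positive and negative cells was not tested. In liver PC, Maf stood at 226 CPM (95% exact Poisson interval 155 to 319) in positive and 61.5 CPM (56.9 to 66.5) in negative cells, Ikzf2 at 35.3 CPM (11.5 to 82.5) and 8.65 CPM (6.97 to 10.6), and Gata3 at 42.4 CPM (15.6 to 92.3) and 16.4 CPM (14.0 to 19.0). Maf and Ikzf2 intervals did not overlap, whereas Gata3 intervals did. Tbx21 stood at 70.7 CPM (10 UMIs) and 70.3 CPM (739 UMIs), a difference within counting error, and Id2 was at 587 CPM (467 to 727) and 796 CPM (779 to 813). Cd8a was at 551 CPM (436 to 688) in the positive cells and Cd4 at 77.8 CPM (38.8 to 139), beside 739 CPM (722 to 755) and 31.3 CPM (28.0 to 34.9) in the negative cells, with 67.9 and 1.88 CPM in macrophages of that library. Of the 83 liver PC cells of any class with a Foxp3 UMI, 27 were among its 3608 CD8 T cells and 5 among its 181 CD4 T cells. The share was thus higher in CD4 T cells.

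Maf was at 651 CPM (6 UMIs) and 46.2 CPM in positive and negative cells of the library labelled liver TIL, at 112 CPM (2 UMIs) and 44.4 CPM in the library labelled heart TIL, and at 0 UMIs (up to 542 CPM) and 48.0 CPM in kidney TIL. Over the 4 libraries, edgeR called none of the 8 factors tested between Foxp3-positive and Foxp3-negative T cells (4 at an unadjusted p under 0.05, and 0 with DESeq2), where 0.0252% of all genes passed, 0.0168% higher and 0.00839% lower. Maf gave log2 1.62 (SE 0.47, adjusted p = 0.25), Ikzf2 1.56 (SE 0.62, adjusted p = 0.62), Gata3 1.35 (SE 0.53, adjusted p = 0.62) and Id2 -1.06 (SE 0.45, adjusted p = 0.62, all edgeR), with the median of all genes at -0.54 and Maf at 2.16 relative to it. Maf passed with the stricter class rules (1.95, edgeR adjusted p = 0.0040) and with RLE size factors (1.98, adjusted p = 1.84e-04), where the median of all genes was -0.16 and 12 genes were higher and 3 lower in place of 2 and 1. Of 10 regulatory T genes tested, Il10 rose (log2 1.72, edgeR adjusted p = 0.022), with 184 CPM (120 to 269) beside 42.4 CPM (38.6 to 46.5) in liver PC, and without that library it was at -0.53 (adjusted p = 0.87 in edgeR). The Il10 call was lost in 3 of the 4 fits that left out 1 of these libraries, in the others without the library labelled liver TIL (edgeR adjusted p = 0.083) and without kidney TIL (0.053), and also with DESeq2 (1.0) and without the libraries labelled heart TIL and liver TIL (log2 1.95, edgeR adjusted p = 0.17). Ctla4, an inhibitory receptor (742 and 199 CPM), Tnfrsf4 (403 and 66.2 CPM) and Izumo1r (290 and 64.0 CPM) had higher values in positive cells of liver PC without passing.

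Maf was also the 1 factor that passed between cycling and non-cycling CD8 T cells (at least 2 UMIs of Mki67, Top2a and Stmn1 against none). The cycling cells were deeper, with median depths of 2483 and 1321 UMIs in liver PC. Depths were 1358 and 803 UMIs in the library labelled heart TIL, and 1369 and 778 UMIs in the library labelled liver TIL. In liver PC Maf stood at 27.6 CPM in 1117 cycling cells and 66.5 CPM in 1550 non-cycling cells, in the library labelled liver TIL at 15.5 and 42.4 CPM, in the library labelled heart TIL at 28.5 and 34.2 CPM, and in kidney TIL at 0 UMIs (up to 32.6 CPM) and 22.8 CPM. Kidney PC was under the minimum of 20 cells and went the other way, with 241 CPM (3 UMIs, 95% exact Poisson interval 49.6 to 703) in 17 cycling cells and 13.2 CPM (1 UMI, 0.335 to 73.8) in non-cycling cells. The Poisson intervals were apart in liver PC (22.2 to 34.0 and 56.5 to 77.9 CPM), and they overlapped in the libraries labelled liver TIL (5.03 to 36.1 and 29.995 to 58.2 CPM) and heart TIL (15.6 to 47.8 and 24.4 to 46.6 CPM) and in kidney TIL, where the limit of the 0 lies above the non-cycling level. The 3 blood libraries held at most 2 Maf UMIs in either group. The log2 difference was -1.24 (SE 0.22, edgeR adjusted p = 3.83e-07), with 1 of 8 factors passing where 15% of all genes did, 4.42% higher and 10.5% lower, and without liver PC it was -0.92 (edgeR adjusted p = 0.15). Without the libraries labelled heart TIL and liver TIL it was -1.42 and passed. Tox (0.31, SE 0.17, edgeR adjusted p = 0.26) and Tbx21 (0.10, SE 0.16, edgeR adjusted p = 0.78) did not pass, and Tox did with 1 sum per organ (0.50, adjusted p = 0.042). Of 8 macrophage markers tested, 8 were lower in cycling cells, with a median log2 difference of -1.06, as were 5 of 5 neutrophil markers (median -1.38), whereas none of 8 T cell markers passed (median -0.01). Also lower were 5 of 5 erythroid (median -1.55), 5 of 6 hepatocyte (-1.19), 4 of 7 B cell (-1.19) and 3 of 3 plasma cell markers (-0.57). None of 8 NK cell markers passed (-0.16). The part of depth and of these markers in the Maf difference was not tested. The macrophage sum ran from 651 to 5579 CPM in cycling and from 1218 to 12571 CPM in non-cycling cells (the highest in kidney PC, which is in the non-cycling range alone), and its part in the Maf difference was not tested. Ccl5, Nr4a1, Klf2 and Il10 were lower in cycling cells as well (-0.88, -0.95, -0.59 and -0.76). Without liver PC Il10 was at -0.25 (edgeR adjusted p = 0.86). When each library was left out in turn, the Klf2 call was lost in 3 fits and the Il10 call in 2, while Ccl5 and Nr4a1 passed in each.

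**Figure D5:**
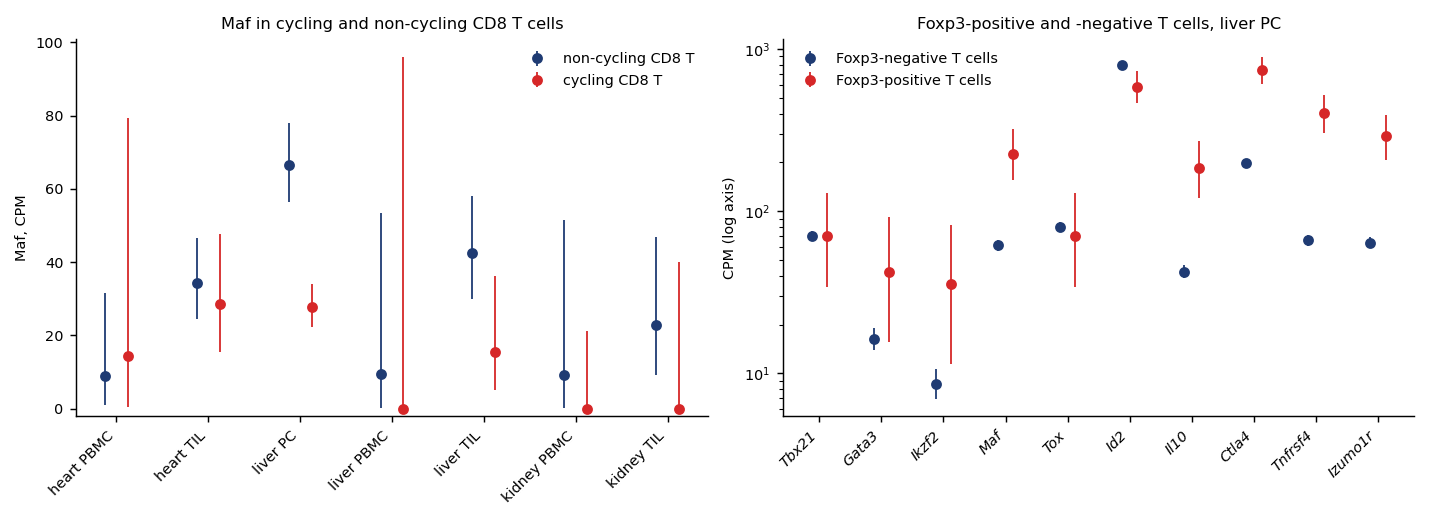
Left, Maf in cycling and non-cycling CD8 T cells (CPM) in the 7 libraries with at least 20 cycling cells. Right, CPM on a log axis of 6 of the factors and 4 regulatory T genes in Foxp3-positive (72 cells) and Foxp3-negative (5808 cells) T cells of liver PC, with 95% exact Poisson intervals in both panels, where the Maf intervals of cycling and non-cycling cells are apart in liver PC and overlap in the other libraries, and Maf is higher in Foxp3-positive cells.

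Over the 30 sums of classes and libraries, the genes whose level was most like that of each factor (Pearson r of log2(CPM + 10)) were Serpinb9b, Klrb1f and Klra3 for Eomes (0.87, 0.77 and 0.76), the last 2 being NK receptor genes. They were F2r, Cisd3 and Sike1 for Tbx21 (0.78, 0.77 and 0.76), Ccdc92, Bcl2a1d and Tipin for Tox (0.89, 0.79 and 0.78), and Efhd2, Sarnp and Dcaf13 for Id2 (0.89, 0.87 and 0.80). They were Tox2, Atxn1 and Nrn1 for Ikzf2 (0.82, 0.79 and 0.79), Iigp1, Tspan31 and Pgap2 for Maf (0.74, 0.72 and 0.68), and Cbx3, Cox16 and 2610002M06Rik for Gata3 (0.72, 0.71 and 0.71). These are descriptions, since sums of 1 library share its depth and free RNA, and small sums raise both genes of a pair by 1 UMI. Bcl6 and Foxp3, with under 100 UMIs in these sums, were not ranked.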

How the data were processed

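The authors sequenced Microwell-seq libraries, aligned reads to GRCm38 with STAR after bcl2fastq and Drop-seq tools, dropped reads with several alignments, collapsed UMIs that differed by 1 edit and deposited raw UMI counts per gene and barcode. All 8 tables held 10000 barcodes each, and all but the liver PC table included barcodes under 500 UMIs. Library totals ran from 3418722 to 19171264 UMIs, and the median kept cell from 581 to 1501.5 UMIs, which limits what single genes show. The 0 counts carry a limit of 3 counts. Intervals cover counting error only.

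Cells were classed and summed per library as described above. No doublet caller was run, and 1748 of the cells left out met both the CD8 T and the macrophage rule. Sums of at least 20 cells (5 for Foxp3-positive T cells) and genes with at least 30 UMIs over a fit entered edgeR 4.0.16 (quasi-likelihood test, TMM, library as block, or organ for graft against blood) in R 4.3.3, with Benjamini-Hochberg adjustment over all genes and a threshold of 0.05. The SE given with edgeR values is the log2 difference, without its sign, divided by the square root of the F statistic. Alternatives were DESeq2 1.42.0, RLE size factors, no count filter, a floor of 1000 UMIs, stricter class rules, cells of more than 1 class kept, shared barcodes left out, 1 sum per organ, and leaving out each library or the libraries labelled heart TIL and liver TIL. The 1 sum per organ joins the blood and graft libraries of an organ, so it does not separate the cell class from blood or graft. The split of T cells by Foxp3 was chosen after the data were seen. Tested on simulated counts with 200 genes changed by log2 2, edgeR recovered 99.5% of changed genes with 6 false calls for CD8 T cells against macrophages (11918 genes), 81% with 5 for graft against blood in CD8 T cells (10696 genes), 65.5% with 26 for NK against CD8 T cells (11938 genes) and 63% with 4 for CD8 T against CD4 T cells (11932 genes). The changed genes were drawn from genes with more UMIs than the sparser factors hold over the class sums. These are Gata3 (255 UMIs), Eomes (143), Ikzf2 (117), Bcl6 (82) and Foxp3 (63), so the recovery does not apply to them.

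The 9 factors and the gene lists were chosen with earlier results of these data known. The text names the 9 factors everywhere, up to 8 list genes per comparison that passed, by smallest adjusted p, and the 3 genes most like each factor. Stat4 and Ikzf3 in CD8 T cells against macrophages passed but were not among the 8 of that comparison. Trac, Jchain, the C1q genes, Tcf7 in graft against blood, Ctla4 in CD8 T against CD4 T cells, and the regulatory T genes given for liver PC were named after their values were seen. The deposited tables hold no class labels, and classes are rebuilt from markers.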

Additional observations from a re-analysis of the deposited data

Results flagged for a closer look

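The graft-minus-blood change differed between NK and CD8 T cells for 3 listed genes by a test of the difference itself (edgeR quasi-likelihood interaction term), and none of the 8 transcription factors tested did. For Ccl4, a chemokine gene, the log2 difference was -2.86 (SE 0.34, adjusted p = 2.46e-13). The fit used the 6 libraries that held both classes, the 3 blood libraries and heart TIL, liver PC and liver TIL as labelled, so that a kidney library stood on the blood side alone. In these libraries Ccl4 ran in CD8 T cells from 39.1 to 173 CPM in blood and from 1443 to 1882 CPM in the graft, and in NK cells from 58.9 to 507 CPM and from 616 to 1729 CPM. For Prf1, perforin, it was -1.93 (SE 0.35, adjusted p = 9.08e-05), with 60.0 to 147 CPM in blood and 210 to 320 CPM in graft CD8 T cells, and 414 to 690 CPM and 172 to 661 CPM in NK cells. For Tnfrsf9, 4-1BB, it was -2.48 (SE 0.55, adjusted p = 0.0086), with 16.7 to 42.9 CPM in blood and 100.5 to 188 CPM in graft CD8 T cells, and 108 to 201 CPM and 102 to 138 CPM in NK cells. Graft CD8 T cells of kidney PC and kidney TIL were outside this fit. They held Ccl4 at 170 and 185 CPM, near the top of the blood range, and Prf1 at 77.5 and 125 CPM, within it. Their Tnfrsf9, at 85.2 and 126 CPM, lay above the blood range. The median of all genes lay at -0.36. DESeq2 called none of the 3 (adjusted p = 1.0 each). Without kidney PBMC the differences were -1.87, -1.34 and -2.48 and none passed (adjusted p = 0.13, 1.0 and 0.39), and Tnfrsf9 was also lost without liver PBMC (0.060) and without the library labelled liver TIL (0.11). The 3 graft NK sums held 22 to 44 cells. The cause of the differences was not tested.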

How the results depend on the processing

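Of 25 called member values none changed direction under any alternative run. Counts of members called that moved by over 1.5 times were, for CD4 T cells against macrophages (5), 3 with DESeq2, 2 with stricter class rules and 0 (without liver PC) to 5 when each library was left out. For NK cells against macrophages (5) they were 3 with cells of more than 1 class kept and 3 (without kidney PBMC) to 5 with each library left out, and for B cells against macrophages (2) 1 with cells of more than 1 class kept and 1 (without liver PC) to 2. For NK against CD8 T cells (1) they were 2 with DESeq2, 2 with stricter rules, 3 with RLE size factors and 4 with 1 sum per organ. For graft against blood in CD8 T cells (1) they were 2 without the count filter, 0 with a floor of 1000 UMIs, 0 with stricter rules, 0 without the organ term, and 0 to 2 (without liver TIL) with each library left out. For the Foxp3 split (0) they were 1 with stricter rules and 1 with RLE, and for cycling CD8 T cells (1) 2 with 1 sum per organ and 0 (without liver PC) to 1. Among uncalled member values given in the text, Tbx21 in cycling cells changed direction with shared barcodes left out (-0.017), and so did Ikzf2 in the Foxp3 split (-6.39 without liver PC to 1.74 with each library left out). Uncalled values not given in the text had 720 alternatives, of which 107 had the other sign and 0 were called. Il10, called in that split, ran from -0.53 (without liver PC) to 1.90.

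Genes called over all genes moved as well: CD8 T against CD4 T cells from 38 to 24 (DESeq2), 23 (cells of more than 1 class kept) and 13 (without liver PC), CD8 T cells against macrophages from 4458 to 2879 (DESeq2) and 2835 (without liver PC), CD4 T cells against macrophages from 1263 to 840 (DESeq2), 592 (stricter rules) and 364 (without liver PC), NK cells against macrophages from 1561 to 1021 (cells of more than 1 class kept), and B cells against macrophages from 680 to 1210 (1 sum per organ), 268 (without liver PC) and 440 (without liver TIL). NK against CD8 T cells moved from 338 to 178 (without the libraries labelled heart TIL and liver TIL) and 724 (1 sum per organ), with 186 by DESeq2, 205 with cells of more than 1 class kept, 203 with RLE and 189 without liver PC. Graft against blood moved in CD8 T cells from 459 to 94 without the organ term, 206 with the higher floor, 776 without the count filter, 791 for TIL against PBMC alone, and 97 (without heart PBMC) to 936 (without liver TIL), and in NK cells from 92 to 33 (DESeq2), 0 (stricter rules), 7 (no organ term) and 0 (without liver TIL) to 99 (without liver PC). The Foxp3 split moved from 3 to 1 (DESeq2), 58 (no filter), 0 (higher floor), 6 (stricter rules), 5 (shared barcodes left out), 15 (RLE), 0 (without the heart TIL and liver TIL libraries), 1 (at least 10 positive cells) and 0 to 46. Cycling moved from 1512 to 732 (DESeq2), 810 (without heart TIL and liver TIL), 587 (Mki67 and Top2a alone) and 672 (without liver PC), and the NK minus CD8 T difference from 10 to 0 (DESeq2), 2 (higher floor), 6 (without heart TIL and liver TIL), 6 (without liver PBMC) and 1 (without kidney PBMC). The cause was not tested. Graft against blood in CD4 T cells and the Foxp3 split of CD4 T cells could not be fitted.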
